A study of Arabidopsis thaliana with 12 samples.

Results

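The trehalose-phosphate synthase (TPS) genes examined here are TPS1 and TPS5 to TPS11 of Arabidopsis thaliana. They were chosen by gene identifier, AT1G78580, AT4G17770, AT1G68020, AT1G06410, AT1G70290, AT1G23870, AT1G60140 and AT2G18700 in that order, and are 8 of the 32833 genes in each table. RNA of whole seedlings was sequenced in 12 libraries, 3 for each of 4 groups. Seedlings were 10 days old, grown in the dark, and either wild type (WT) or cry1, which lacks normal function of the blue light receptor cryptochrome 1. They were collected in the dark (WT dark, cry1 dark) or after continuous blue light of 40 µmol m-2 s-1 had been on for 1 h (WT blue, cry1 blue). The sources used here name neither the cry1 allele nor the accession, nor the growth medium and any sugar in it.

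Trehalose-phosphate synthases make trehalose 6-phosphate, a sugar phosphate that plants keep at low levels and use as a signal of sucrose supply. TPS1, a class I protein, is the main active enzyme in Arabidopsis. Class II proteins, TPS5 to TPS11, join a synthase-like to a phosphatase-like domain, and for most of them no enzyme activity is established. Their transcripts follow sugar status: TPS8 to TPS11 are known to be high in carbon-starved tissue and repressed by sugar, and TPS5 is known to be induced by sugar. The kinase SnRK1, which promotes the use of reserves under starvation, is inhibited by trehalose 6-phosphate.

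The values are TPM, transcript levels scaled to the same nominal total in each library, so that read depth is unknown and an increase in abundant transcripts pulls all other values down. The tables sum to between 980965 and 996431 TPM per library. Cryptochrome 1 RNA checked the labels: it was at 23.8 to 59.9 TPM in the 6 WT libraries and at 0 to 1.71 TPM in the 6 cry1 libraries. All 5 shoot markers had a value above 0 in every library. Their sums were 83.3 to 91.7 TPM for WT dark and 62.4 to 95.5 TPM for WT blue. For cry1 they were 46.7 to 89.3 TPM without light and 84.1 to 97.3 TPM with it. By the test described below, YAB3 and STM were lower in cry1 dark than in WT dark, 2 of 5 beside 23.5% of all tested genes. STM was also lower in WT blue than in WT dark, 1 of 5 beside 25.3%. Its light response differed between the genotypes, 1 of 5 beside 6.84% higher. Root markers were low and differed with genotype, summing over 8 genes to 9.34 to 18.4 TPM for WT dark and 1.51 to 6.72 TPM for WT blue, and for cry1 to 32.5 to 54.4 TPM without light and 93.5 to 127 TPM with it. Of these 8, the nitrate transporter gene NRT2.1 was listed at 0 in the 6 WT libraries and the iron transporter gene IRT1 in the 3 WT blue libraries. The markers did not move alike. In cry1 blue, PRP3, EXPA7 and EXPA18 had means of 61.0, 21.4 and 19.3 TPM in a mean sum of 113 TPM. Group means ran only from 1.11 to 1.96 TPM for RHD6 and from 0.55 to 1.34 TPM for WOX5. WOX5 (0.92 and 0.55 TPM) and IRT1 (0.78 and 0.35 TPM) had lower means in cry1 dark than in WT dark. The part of these differences in the results for the TPS genes was not tested. Whether replicate libraries stem from separately grown seedlings is not stated, and p-values therefore describe variation among these libraries only, which may be technical.

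The 8 genes differ in structure along the line between the classes. TPS1 (chr1:29552340-29560912) has 17 coding exons for 942 residues in RefSeq's TAIR10.1 annotation, and each of the 7 class II genes has 3, with 1 long exon of 1964 to 2021 coding bases, for 851 to 867 residues. TPS6 (chr1:25496928-25500584), TPS7 (chr1:1954674-1958866), TPS8 (chr1:26470795-26474833), TPS9 (chr1:8432179-8435656) and TPS10 (chr1:22176934-22181740) also lie on chromosome 1, TPS11 (chr2:8108898-8112010) on chromosome 2 and TPS5 (chr4:9876172-9880386) on chromosome 4. Coding sequences of class II genes were 60.4% to 80.8% identical with each other and 46.0% to 48.0% identical with TPS1. TPS8 and TPS9 were the most alike pair at 80.8%, followed by TPS9 with TPS10 and TPS8 with TPS10, both at 71.5%.

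How far reads could be shared between these copies is shown by the longest stretches of identical coding sequence. No pair shared more than 32 bases in a row. TPS8 and TPS9 shared 2 runs of that length, which are printed because they are the longest coding stretches where the 2 genes cannot be told apart. The first lies at chr1:26471485-26471516 in TPS8 (minus strand) and chr1:8435258-8435289 in TPS9 (plus strand), and the second at chr1:26472457-26472488 and chr1:8434300-8434331.
shared run 1: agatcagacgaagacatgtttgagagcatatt
shared run 2: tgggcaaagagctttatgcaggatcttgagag
TPS1, TPS5 and TPS6 overlap genes on the opposite strand, and whether reads were counted by strand is not given. For TPS1 these are AT1G78570 (99 bases, up to 175 TPM) and the non-coding AT1G09827 (429 bases, up to 0.19 TPM), for TPS5 AT4G17780 (128 bases, listed at 0 in every library) and for TPS6 AT1G68030 (207 bases, up to 2.57 TPM). Reads of TPS1 and of the much more abundant AT1G78570 that lie wholly within the 99 shared bases could not be told apart by position alone.

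In the dark, WT seedlings held most of their TPS transcripts in the class II genes TPS7 to TPS11. TPM is scaled for transcript length, so levels can be set beside each other between genes if that unit, which was read from the values, is right. TPS10 led at 94.6 ± 7.60 TPM (mean ± SD, n = 3 libraries here and below), followed by TPS8 at 63.7 ± 9.57 and TPS7 at 61.4 ± 3.75, whose ranges overlapped. TPS11 at 39.9 ± 8.07 and TPS9 at 39.2 ± 4.80 overlapped too. TPS6 at 27.0 ± 0.59, TPS5 at 9.37 ± 1.05 and TPS1, the class I enzyme, at 6.39 ± 1.03 TPM came last, each with a range apart from its neighbours. The other class I synthase genes were nearly silent: TPS3 was listed at 0 in all 12 libraries, TPS2 did not exceed 0.03 TPM and TPS4 did not exceed 0.08 TPM.

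The order changed in the other groups. In WT blue TPS7 stood first at 50.1 ± 15.8 TPM, above TPS10 at 15.5 ± 3.45, and every further neighbour in the order overlapped, down to TPS1 at 5.79 ± 2.36 TPM. In cry1 dark TPS10 at 48.9 ± 14.0 and TPS7 at 47.5 ± 10.9 TPM overlapped at the top, and TPS1 at 4.90 ± 2.08 TPM was the only gene with a range apart from its neighbour, TPS11. In cry1 blue TPS7 at 43.9 ± 22.2 was followed by TPS5 at 22.5 ± 7.01 TPM, and TPS11 came last at 3.92 ± 1.13 TPM, with all neighbours overlapping. TPS1 thus ranged only between group means of 4.90 and 7.0 TPM.

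**Figure D1:**
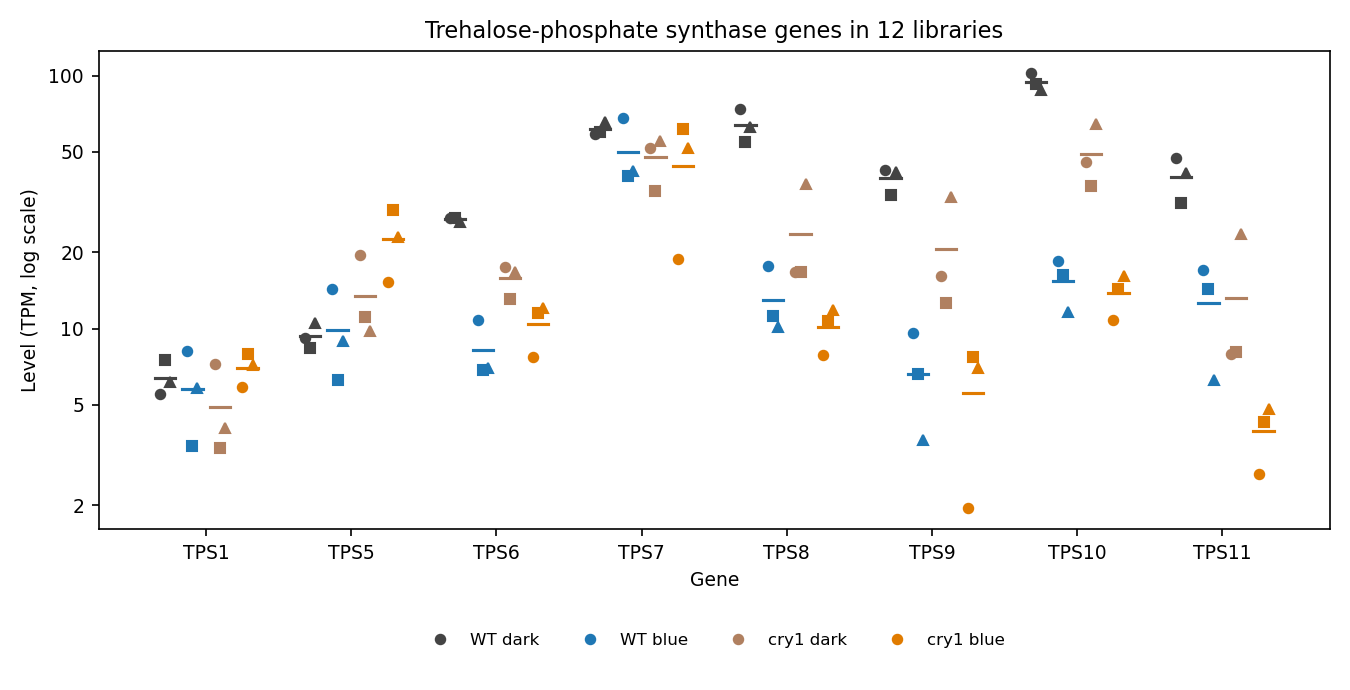
Level of each gene in TPM (vertical axis, log scale) in the 12 libraries, coloured by group; circles, squares and triangles are replicates 1, 2 and 3 and the bars are group means. TPS8 to TPS11 are highest in the 3 WT dark libraries, while the groups of TPS1 overlap.

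The first comparison asks which TPS genes change in WT during 1 h of blue light. TPS6, TPS8, TPS9, TPS10 and TPS11 fell, and TPS1, TPS5 and TPS7 did not pass the test. In whole seedlings, fewer cells of a type and less RNA per cell cannot be told apart. Differences were tested with limma on log2(TPM + 1) over 20314 genes, with a Benjamini-Hochberg adjusted p under 0.05 as the threshold, and all 8 genes were among those tested.

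TPS10 was at 103, 92.8 and 88.0 TPM in WT dark and at 18.4, 16.3 and 11.7 TPM in WT blue. The groups were far apart, a 6.12-fold difference of means and a log2 fold change of -2.56 ± 0.23 (SE, adjusted p = 5.95e-06). TPS9, at 42.4, 33.7 and 41.6 TPM in WT dark, was at 9.57, 6.60 and 3.64 TPM in WT blue. Blue replicate 3 was the lowest library and the groups did not overlap (log2 fold change -2.48 ± 0.43, adjusted p = 0.000951). TPS8 went from 73.7, 54.6 and 62.7 TPM to 17.6, 11.3 and 10.1 TPM. Here too every dark library lay above every blue one (log2 fold change -2.24 ± 0.30, adjusted p = 0.00014).

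TPS11, whose coding sequence is 60.4% to 62.4% identical with those of the other class II genes, was at 47.2, 31.3 and 41.2 TPM in WT dark and at 17.1, 14.4 and 6.24 TPM in WT blue. Its log2 fold change was -1.68 ± 0.41 (adjusted p = 0.00739), with groups apart. TPS6, which can replace both yeast activities in a yeast mutant according to RefSeq's annotation, was very even in WT dark, at 27.5, 27.3 and 26.4 TPM. It stood at 10.8, 6.83 and 6.97 TPM in WT blue, lower in all 3 libraries (log2 fold change -1.64 ± 0.22, adjusted p = 0.000134).

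The genes that did not pass showed overlapping groups. TPS7, for which RefSeq's annotation records no enzyme activity, was at 58.6, 59.9 and 65.7 TPM in WT dark and at 68.3, 40.1 and 41.8 TPM in WT blue (log2 fold change -0.33, adjusted p = 0.488). TPS5 was at 9.21, 8.40 and 10.5 TPM in the dark and 14.3, 6.27 and 8.94 TPM in blue light (log2 fold change 0.0025, adjusted p = 0.996). TPS1 was at 5.51, 7.53 and 6.13 TPM in the dark and 8.13, 3.42 and 5.83 TPM in blue light. Its log2 fold change of -0.17 (adjusted p = 0.662) changed sign with TMM-type scaling (0.09).

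Thus 5 of 8 TPS genes were lower and 0 higher, beside 25.3% of all tested genes lower and 9.73% higher. The median log2 fold change was -1.66 over the 8 genes and -0.27 over all tested genes. With TMM-type scaling, which moves the median of all genes to -0.0053 and the calls from 1976 higher and 5144 lower to 3561 and 3384, the same 5 genes were lower, by log2 fold changes of -1.34 (TPS6), -1.37 (TPS11), -1.93 (TPS8), -2.17 (TPS9) and -2.24 (TPS10). The 5 calls also held without any 1 of the 12 libraries, with adjusted p up to 0.0344 for TPS11.

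The regions upstream of TPS8, TPS9, TPS10 and TPS11, which were lower in blue light in both genotypes, are printed to show what sequence they do and do not share. Each is the 250 bases before the gene's start in RefSeq's TAIR10.1 annotation, 5′ to 3′ on the strand of the gene. Capitals mark matches, on either strand, to any of 5 motifs: the G-box CACGTG, bound by bZIP and bHLH factors of light signalling, ACTCAT, bound by sugar-regulated bZIP factors, TATCCA, described in sugar-starved rice cells, the I-box GATAAG of light-regulated genes, and AATATCT, the core of the evening element of clock-regulated genes. On the opposite strand GATAAG reads CTTATC, whose letters can overlap TATCCA, but none of the matches found overlapped.
TPS8 (chr1:26474834-26475083, minus strand): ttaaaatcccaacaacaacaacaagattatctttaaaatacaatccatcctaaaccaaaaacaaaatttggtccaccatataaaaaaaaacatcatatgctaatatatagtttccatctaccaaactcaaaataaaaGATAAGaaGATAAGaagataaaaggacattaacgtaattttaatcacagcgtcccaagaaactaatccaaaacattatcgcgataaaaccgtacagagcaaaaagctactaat
TPS9 (chr1:8431929-8432178, plus strand): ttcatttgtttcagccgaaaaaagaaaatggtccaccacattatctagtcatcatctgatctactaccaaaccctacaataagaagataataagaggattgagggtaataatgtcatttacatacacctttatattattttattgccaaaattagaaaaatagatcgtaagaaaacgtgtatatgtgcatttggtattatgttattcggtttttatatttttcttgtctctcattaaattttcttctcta
TPS10 (chr1:22181741-22181990, minus strand): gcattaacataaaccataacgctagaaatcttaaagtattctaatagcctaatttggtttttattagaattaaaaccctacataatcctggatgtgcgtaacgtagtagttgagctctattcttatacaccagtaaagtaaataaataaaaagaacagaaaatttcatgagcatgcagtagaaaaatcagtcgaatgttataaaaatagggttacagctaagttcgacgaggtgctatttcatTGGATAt
TPS11 (chr2:8108648-8108897, plus strand): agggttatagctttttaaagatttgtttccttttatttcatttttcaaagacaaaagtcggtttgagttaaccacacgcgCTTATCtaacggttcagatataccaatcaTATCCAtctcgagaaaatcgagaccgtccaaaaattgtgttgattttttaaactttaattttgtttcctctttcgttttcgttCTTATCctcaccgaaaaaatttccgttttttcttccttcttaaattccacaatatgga
No motif was found before all 4. GATAAG was found upstream of TPS8 (2 copies) and TPS11 (2 copies), beside 12.3% of 27443 windows of the same length before protein-coding genes. TATCCA was found upstream of TPS10 and TPS11 (13.6% of windows). ACTCAT (12.3% of windows), CACGTG (6.49%) and AATATCT (10.0%) occurred in none of the 4, and the window of TPS9 holds none of the 5 motifs. A match is a description of letters, not of a bound site.

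The second comparison is that of blue light with the dark in cry1. TPS8, TPS9, TPS10 and TPS11 were lower after 1 h of blue light, and TPS1, TPS5, TPS6 and TPS7 did not pass the test. These were 4 of 8 genes lower and 0 higher, beside 5.73% of all tested genes lower and 9.19% higher. At an unadjusted p under 0.05, 5 were lower and 1 higher, beside 5621 of the 20314 tested genes in either direction. The median log2 fold change was -0.82 over the 8 genes and -0.06 over all tested genes.

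TPS10 was at 45.6, 36.8 and 64.2 TPM in cry1 dark and at 10.9, 14.4 and 16.1 TPM in cry1 blue. The groups were apart, with a 3.55-fold difference of means (log2 fold change -1.73 ± 0.23, adjusted p = 0.00015), and the call held without any 1 library. TPS9 was at 16.2, 12.6 and 33.3 TPM in the dark and at 1.96, 7.71 and 7.01 TPM in blue light (log2 fold change -1.76 ± 0.43, adjusted p = 0.0135). Dark replicate 3 was high and blue replicate 1 low. TPS8 was at 16.7, 16.8 and 37.3 TPM in the dark and at 7.84, 10.7 and 11.8 TPM in blue light (log2 fold change -1.06 ± 0.30, adjusted p = 0.0279). TPS11 was at 7.90, 8.07 and 23.7 TPM in the dark and at 2.66, 4.28 and 4.83 TPM in blue light (log2 fold change -1.38 ± 0.41, adjusted p = 0.0353).

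For all 4 of these genes cry1 dark replicate 3 was the highest library of its group, and 3 of the calls depended on it. Without it only TPS10 was called, and the log2 fold changes were -1.52 for TPS10 (adjusted p = 0.000674), -1.37 for TPS9 (adjusted p = 0.0598), -0.69 for TPS8 (adjusted p = 0.111) and -0.90 for TPS11 (adjusted p = 0.141). TPS8 also lost the call without cry1 blue replicate 1 (adjusted p = 0.107) or 2 (0.053), TPS9 without cry1 blue replicate 1 (0.0528), and TPS11 without any 1 of the 3 cry1 blue libraries (0.0596 to 0.128). With no filter on low values, TPS8 (adjusted p = 0.0506) and TPS11 (0.0683) were not called either, nor was TPS11 with a block for the replicate number (0.0643). The summed level of 10 touch and early stress genes set the same library apart, at 1651 TPM against 769 and 546 TPM in the other cry1 dark libraries, and ran from 329 to 356 TPM in cry1 blue. TCH3 alone made up 881 of the 1651 TPM. In WT, where TPS8 to TPS11 also fell, the sums overlapped. They were 1763, 1587 and 1265 TPM in the dark and 998, 2207 and 1784 TPM in blue light. The part of these stress genes in the falls of TPS genes was not tested.

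The remaining genes overlapped or stood near the threshold. TPS6 was at 17.5, 13.1 and 16.8 TPM in cry1 dark and at 7.69, 11.5 and 12.1 TPM in cry1 blue. Its groups did not overlap, but its log2 fold change of -0.57 ± 0.22 had an adjusted p of 0.0973, which was 0.0331 with TMM-type scaling and 0.0186 with quantile normalization. TPS5, the sugar-induced member, was at 19.6, 11.1 and 9.81 TPM in the dark and at 15.3, 29.3 and 23.0 TPM in blue light (log2 fold change 0.71 ± 0.31, adjusted p = 0.154). TPS7 was at 52.0, 35.1 and 55.4 TPM in the dark and at 18.9, 61.3 and 51.6 TPM in blue light, with overlapping groups. TPS1 was at 7.26, 3.37 and 4.06 TPM in the dark and at 5.89, 7.91 and 7.20 TPM in blue light, also overlapping.

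**Figure D2:**
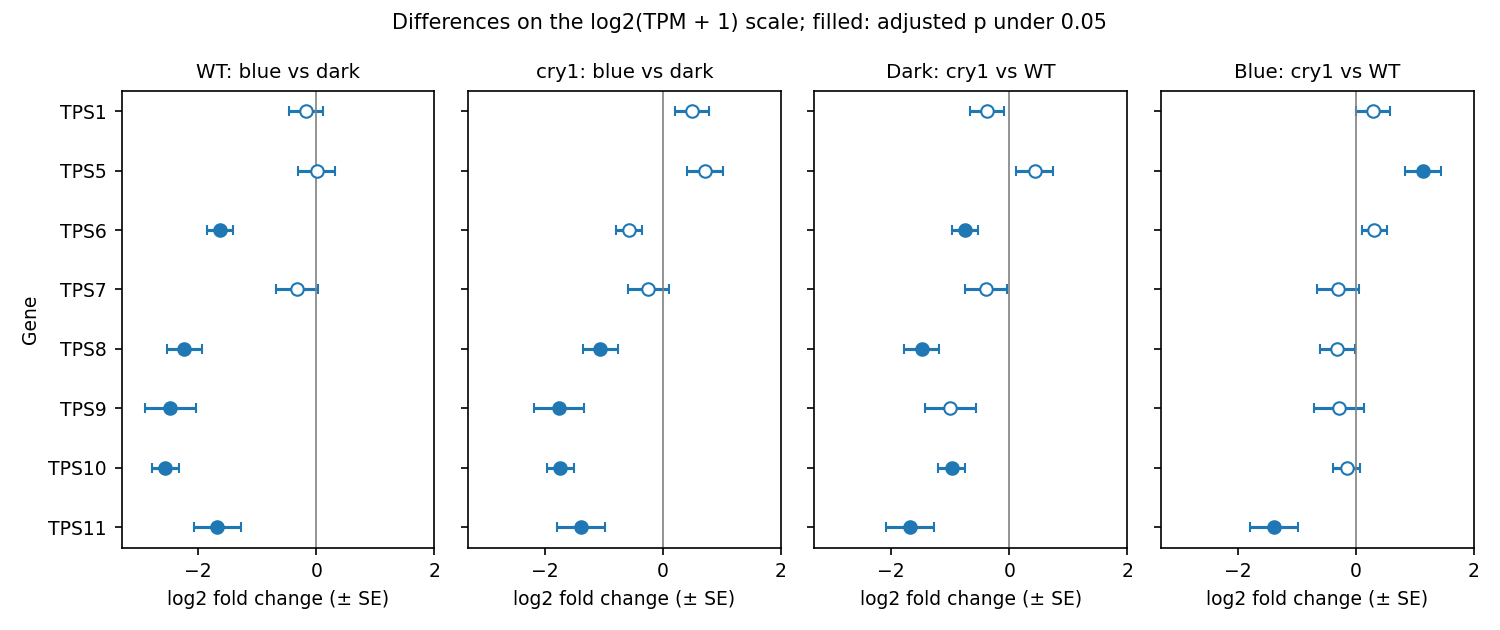
Log2 fold change with its SE (horizontal axis) for the 8 genes in the 4 comparisons of groups, from limma; filled points have an adjusted p under 0.05. The 5 filled points of the WT light response lie at -1.64 or below, and in blue light only TPS5 and TPS11 are filled.

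Whether the light response itself differed between the genotypes was tested as an interaction, the cry1 response minus the WT response. TPS6 alone passed, with a difference of 1.07 ± 0.30 on the log2 scale (adjusted p = 0.0455): by its means it was 3.30-fold lower in blue light in WT and 1.52-fold lower in cry1, where the fall did not pass the test. Hence 1 of 8 genes was called higher and 0 lower, beside 6.84% and 2.33% of all tested genes. With TMM-type scaling the split of all calls went from 1390 higher and 473 lower to 1220 and 888. The TPS6 call was lost without any 1 of 9 of the 12 libraries (WT dark 1, 2 or 3, WT blue 2 or 3, cry1 dark 2 or 3, cry1 blue 2 or 3), the adjusted p ranging from 0.0174 to 0.121. It was also lost with a pseudocount of 0.1 (adjusted p = 0.0501), with no filter on low values (0.0601) and with a block for the replicate number (0.0782). TPS8 had a difference of 1.17 ± 0.42 (adjusted p = 0.0914), TPS10 of 0.82 ± 0.32 (0.118), TPS9 of 0.72 ± 0.61 (0.469) and TPS11 of 0.29 ± 0.57 (0.772). TPS8 passed without WT blue replicate 1 (adjusted p = 0.044) or cry1 dark replicate 3 (0.0214). At an unadjusted p under 0.05, 3 of the 8 genes were higher and 0 lower, beside 5608 of the 20314 tested genes in either direction.

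Without light the genotypes also differed. In the dark TPS6, TPS8, TPS10 and TPS11 had lower levels in cry1 than in WT, while the other 4 genes did not pass. TPS11 differed most, with means of 39.9 TPM in WT and 13.2 TPM in cry1, a 3.02-fold difference (log2 fold change -1.68 ± 0.41, adjusted p = 0.00976). TPS8 was 2.70-fold lower (-1.49 ± 0.30, adjusted p = 0.004), TPS10 1.94-fold (-0.97 ± 0.23, adjusted p = 0.00828) and TPS6 1.71-fold (-0.75 ± 0.22, adjusted p = 0.0212). TPS9 was 1.90-fold lower by its means and did not pass (-1.0 ± 0.43, adjusted p = 0.0955), although all 3 WT values lay above all 3 cry1 values. It passed without cry1 dark replicate 3 (adjusted p = 0.0293) or cry1 blue replicate 1 (0.0425) and with only the groups compared in the fit (0.0377), the adjusted p reaching 0.323 over the libraries left out.

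These 4 of 8 lower genes and 0 higher ones stand beside 23.5% of all tested genes lower and 5.33% higher. Over the 8 genes the log2 fold change had a median of -0.86, and over all genes of -0.29. TMM-type scaling moved the latter to -0.04 and the split of all calls from 1082 higher and 4767 lower to 2315 and 2748. The 4 genes remained lower under that scaling, at -0.47 (TPS6), -0.68 (TPS10), -1.20 (TPS8) and -1.39 (TPS11). With quantile normalization TPS6 lost the call (-0.38, adjusted p = 0.0733) and TPS5 was higher in cry1 (0.83, adjusted p = 0.0327). Calls of TPS8 and TPS10 held without any 1 library. TPS11 lost the call without cry1 dark replicate 2 (adjusted p = 0.0509), and TPS6 without WT dark replicate 1 or 2 or cry1 dark replicate 2, which leaves 2 genes lower without the last.

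In blue light 2 of the 8 genes differed between the genotypes. TPS11 was lower in cry1, with 17.1, 14.4 and 6.24 TPM in WT and 2.66, 4.28 and 4.83 TPM in cry1 (log2 fold change -1.39 ± 0.41, adjusted p = 0.0234). TPS5 was higher in cry1, with 14.3, 6.27 and 8.94 TPM in WT and 15.3, 29.3 and 23.0 TPM in cry1 (log2 fold change 1.14 ± 0.31, adjusted p = 0.017). Both pairs of groups were apart, TPS5 by a narrow margin between WT replicate 1 and cry1 replicate 1. The other 6 genes had log2 fold changes between -0.31 and 0.32 and adjusted p from 0.314 to 0.68.

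With 1 of 8 genes in each direction, the family was near the share of all tested genes, of which 10.9% were higher and 14.3% lower in cry1 blue. Quantile normalization moved that split from 2213 higher and 2906 lower to 3641 and 3122 and added TPS6 (0.41, adjusted p = 0.0467) to the higher genes. The call of TPS5 was lost without replicate 2 of WT blue and without replicate 2 or 3 of cry1 blue (adjusted p up to 0.0842). The call of TPS11 was lost without replicate 1 or 2 of WT blue and without replicate 1 of cry1 blue (up to 0.0915).

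The make-up of the family shifted with these changes. The 8 genes summed to 367, 315 and 342 TPM in WT dark and to 164, 105 and 95.2 TPM in WT blue. For cry1 the sums were 183, 137 and 245 TPM without light and 71.1, 147 and 134 TPM with it, so that WT dark stood apart from the other groups. TPS8 to TPS11 made up 69.4% ± 2.78 of the sum for WT dark and 39.2% ± 6.5 for WT blue, beside 55.4% ± 8.81 for cry1 dark and 29.2% ± 3.83 for cry1 blue. TPS7 alone was 18.1% ± 1.80 of the sum in WT dark and 41.2% ± 2.89 in WT blue. TPS5 ran from 2.75% ± 0.29 in WT dark to 19.6% ± 2.22 in cry1 blue, and TPS1 from 1.89% ± 0.45 to 6.35% ± 1.67 in the same groups. These shares are a description, since a fall of some members raises the share of the rest.

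**Figure D3:**
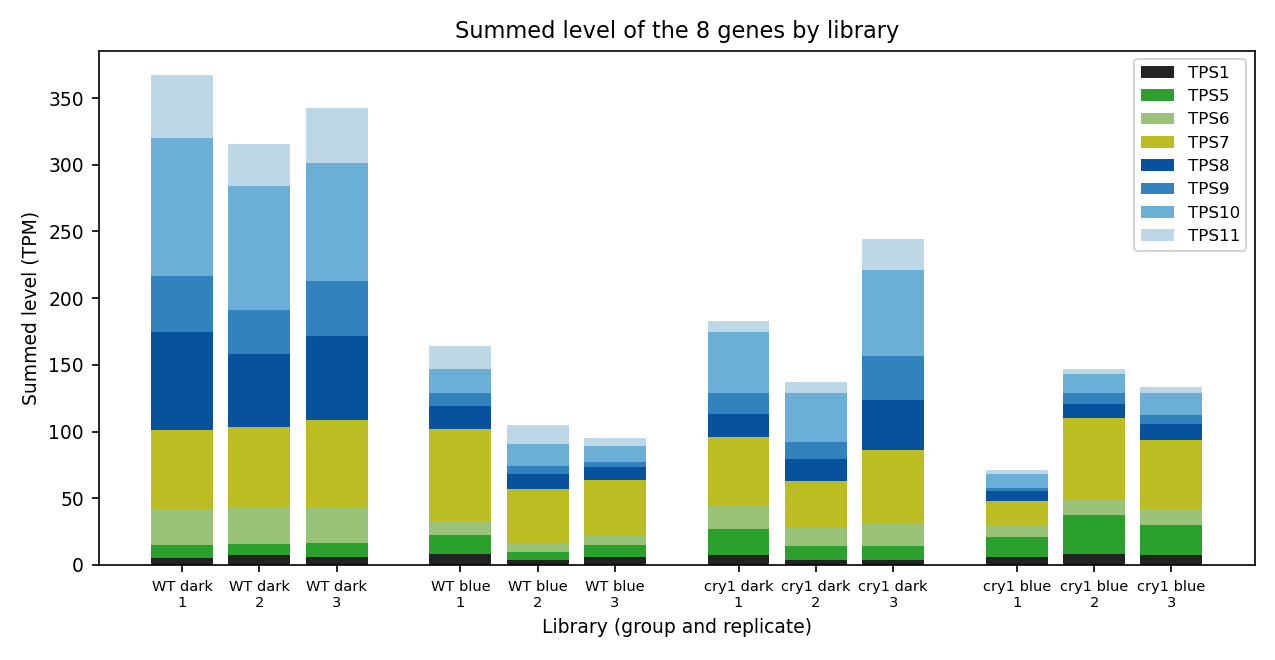
Stacked levels of the 8 genes (vertical axis, TPM) in each of the 12 libraries, from TPS1 at the bottom to TPS11 at the top. The blue segments, TPS8 to TPS11, take 67.3% to 72.5% of the sum in WT dark and 25.2% to 32.8% in cry1 blue.

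Genes of enzymes that act on trehalose 6-phosphate or trehalose moved in both directions. A list of the 10 trehalose-phosphate phosphatase genes TPPA to TPPJ, which remove the phosphate, and the trehalase TRE1, which splits trehalose into glucose, had 10 of 11 members tested. In WT blue against WT dark 2 were higher, TPPI and TPPG, and 2 lower, TPPA and TRE1, beside 9.73% and 25.3% of all tested genes. The count of higher genes was 1 without any 1 WT dark library or WT blue replicate 2 or 3, and that of lower genes was 1 without WT dark replicate 1 or 2 or WT blue replicate 2. TPPI rose from 5.92, 3.71 and 4.51 TPM to 16.1, 12.2 and 12.3 TPM (log2 fold change 1.35 ± 0.22, adjusted p = 0.00053). TRE1 fell from 17.3, 18.0 and 10.99 TPM to 5.27, 5.71 and 4.27 TPM (-1.41 ± 0.32, adjusted p = 0.00491). Light and dark values of both genes were apart. The median log2 fold change of the list was 0.04, beside -0.27 over all tested genes.

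In cry1 limma called 0 of these 10 genes for the light response, 2 being higher and 2 lower at an unadjusted p under 0.05. Among all 20314 tested genes 9.19% were called higher and 5.73% lower, and 5621 had an unadjusted p under 0.05. With TMM-type scaling 2 were higher and 1 lower. In blue light 4 of 10 were lower in cry1 than in WT, TPPG (-1.06), TPPI (-0.88), TPPJ (-1.07) and TRE1 (-0.95), and 2 of 10 were higher with TMM-type scaling, against 0 as deposited. The 4 stand beside 14.3% of all tested genes and were 2 without cry1 blue replicate 3. In the dark TPPF, TPPJ and TRE1 were lower in cry1, TRE1 at 5.01, 2.56 and 8.32 TPM beside 10.99 TPM or more in WT. These 3 of 10 stand beside 23.5% of all tested genes. The interaction called 0 of 10, against 2 lower with TMM-type scaling and 1 higher and 2 lower at an unadjusted p under 0.05 (TPPG had -0.85, adjusted p = 0.0821). It called 6.84% of all tested genes higher and 2.33% lower, and 5608 of the 20314 had an unadjusted p under 0.05.

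Among the 7 subunit genes of SnRK1, the kinase that trehalose 6-phosphate inhibits, the falls in WT blue were those of KINbeta1, KING1 and the catalytic subunit KIN10. KINbeta1, a regulatory subunit, went from 173, 130 and 131 TPM in WT dark to 27.1, 24.6 and 11.8 TPM in WT blue (log2 fold change -2.79 ± 0.29, adjusted p = 2.57e-05). KING1, a gamma-type subunit, went from 209, 159 and 180 TPM to 84.0, 89.0 and 57.4 TPM (-1.25 ± 0.20, adjusted p = 0.000611). KIN10 fell too, with -0.58 ± 0.19 on the log2 scale (adjusted p = 0.0312). In cry1 only KINbeta1 fell, from 32.9, 28.7 and 55.1 TPM to 17.4, 14.9 and 17.9 TPM (-1.12 ± 0.29, adjusted p = 0.0203), a call lost without cry1 dark replicate 3 or cry1 blue replicate 2. The same 3 genes were lower in cry1 dark than in WT dark, and in blue light limma called 0 of 7, with 0 also at an unadjusted p under 0.05. The interaction was called for KINbeta1 (1.67 ± 0.41, adjusted p = 0.0281) and KING1 (1.20 ± 0.29, adjusted p = 0.0244), both calls being lost with TMM-type scaling and without WT dark replicate 1 or cry1 blue replicate 3, and the count of 2 being 1 without WT blue replicate 3 or cry1 dark replicate 2. With TMM-type scaling 2 subunit genes were lower and 1 higher for light in WT and for genotype in the dark, against 3 and 0 as deposited. The count of 3 lower for light in WT was also 2 without WT dark replicate 1 or 2 or WT blue replicate 2 or 3. These 3 of 7 genes stand beside 25.3% of all tested genes lower for light in WT and 23.5% for genotype in the dark. The 1 of 7 lower for light in cry1 stands beside 5.73%, and the 2 of 7 higher in the interaction beside 6.84%. For genotype in blue light 10.9% of all tested genes were higher and 14.3% lower, and 7488 of 20314 had an unadjusted p under 0.05. The median log2 fold change of the 7 subunit genes was -0.35 for light in WT, -0.05 for light in cry1 and -0.47 for genotype in the dark. Over all tested genes these medians were -0.27, -0.06 and -0.29.

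Starvation markers, transcripts known to rise in darkness or when sugar runs out, made up the last list. Of 7 such genes 6 were lower in WT blue than in WT dark, 4 in cry1 blue than in cry1 dark, 6 in cry1 dark than in WT dark and 2 in cry1 blue than in WT blue, and 0 were higher in any of these (also 0 at an unadjusted p under 0.05). In the same order, 25.3%, 5.73%, 23.5% and 14.3% of all tested genes were lower. Those higher made up 9.73%, 9.19%, 5.33% and 10.9%. The count of 2 in blue light rested on single libraries, being 1 without replicate 2 of WT blue and without replicate 2 or 3 of cry1 blue, 3 without replicate 2 of WT dark and without replicate 1 or 2 of cry1 dark, 4 without cry1 dark replicate 3 and 5 without WT blue replicate 3. The count of 4 for light in cry1 was 2 without cry1 blue replicate 1, and the others ranged from 5 to 6 for light in WT and from 4 to 6 for genotype in the dark. DIN6, an asparagine synthetase, went from 406, 184 and 285 TPM in WT dark to 26.6, 32.8 and 7.53 TPM in WT blue. In cry1 it went from 18.6, 33.3 and 105 TPM to 4.98, 11.6 and 9.5 TPM. Replicate 3 of cry1 dark was the highest of its group, as for TPS8 to TPS11. BCAT2, an enzyme of branched-chain amino acid breakdown, was lower in WT blue (-2.59, adjusted p = 0.00076) and in cry1 dark (-2.49, adjusted p = 0.00217). DIN2, a beta-glucosidase, was the exception in WT, at 57.9, 23.1 and 28.1 TPM in the dark and 58.5, 42.1 and 9.10 TPM in blue light (-0.22, adjusted p = 0.797). SEN1 fell in WT (-2.78, adjusted p = 0.000813). In cry1 its groups overlapped, at 112, 144 and 316 TPM in the dark and 187, 74.7 and 216 TPM in blue light (-0.25, adjusted p = 0.781). The interaction called SEN1 alone (2.53 ± 0.67, adjusted p = 0.0344), 1 of 7 higher and 0 lower, beside 6.84% and 2.33% of all tested genes. The median log2 fold change of the 7 markers was -2.59 for light in WT, -1.26 for light in cry1, -2.30 for genotype in the dark and -0.94 for genotype in blue light, beside medians over all tested genes of -0.27, -0.06, -0.29 and -0.02.

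Library by library, the summed levels of TPS8 to TPS11 and of the 7 markers are shown together. The marker sum is mostly SEN5, SEN1 and DIN10. Their means in WT dark were 1351, 1233 and 441 TPM in a mean sum of 3512 TPM. TPS8 to TPS11 summed to 266, 212 and 234 TPM in WT dark beside 4571, 2432 and 3532 TPM of the markers. In cry1 dark the sums were 86.4, 74.2 and 158 TPM beside 544, 657 and 1455 TPM. Replicate 3 of cry1 dark lay between the rest of its group and WT dark in both sums. In WT blue TPS8 to TPS11 stood at 62.7, 48.5 and 31.7 TPM and the markers at 722, 848 and 300 TPM, and in cry1 blue the values were 23.3, 37.1 and 39.8 TPM beside 366, 234 and 370 TPM. The 2 blue groups overlapped in both sums.

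**Figure D4:**
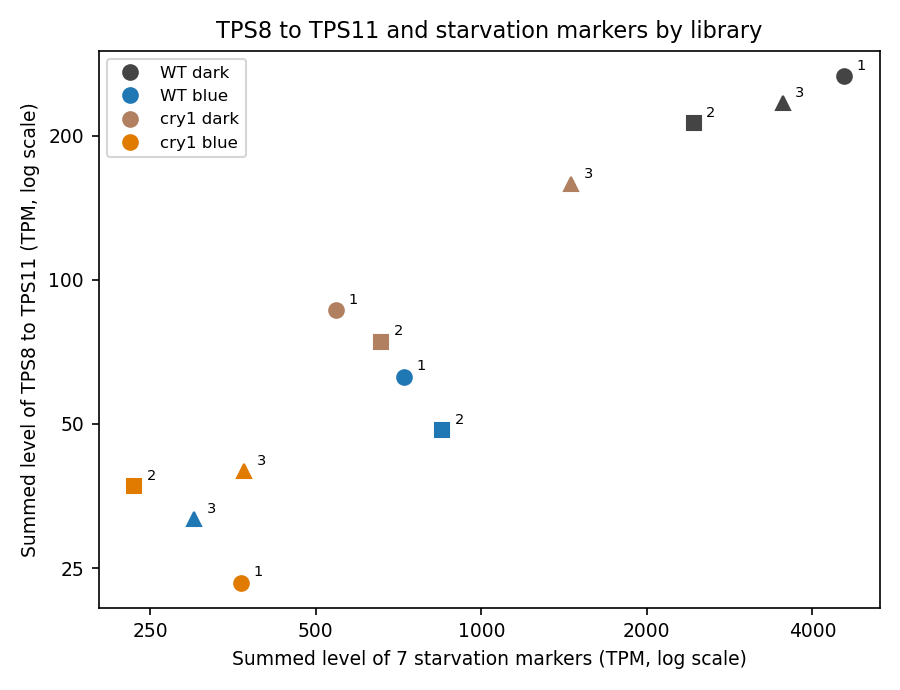
Summed TPM of TPS8 to TPS11 (vertical axis, log scale) against summed TPM of 7 starvation markers (horizontal axis, log scale), 1 point per library with its replicate number. The marker sum is mostly SEN5, SEN1 and DIN10. The 3 WT dark libraries lie at the upper right, cry1 dark replicate 3 lies between them and the rest, and all libraries share the scaling of TPM.

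Members differed in whose pattern they resembled most. Likeness was measured as the root-mean-square difference between 2 genes' log2(TPM + 1) values over the 12 libraries, each centred on its own mean. Within the family TPS9 and TPS10 were closest (0.32), then TPS8 and TPS10 (0.36) and TPS8 and TPS9 (0.41), the 3 genes most alike in coding sequence. TPS5 and TPS11 were farthest apart (1.62), and TPS6 was nearer to TPS8 (0.51) than to TPS5 (0.92), its closest relative by sequence at 69.2% identity.

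Outside the family, the gene nearest to TPS8 was STP1 (0.19), a hexose transporter of the plasma membrane, with means of 116 TPM for WT dark, 22.6 for WT blue, 50.7 for cry1 dark and 22.0 TPM for cry1 blue. The gene nearest to both TPS10 (0.16) and TPS9 (0.31) was WES1, also called GH3.5, which conjugates auxin to amino acids, at 217, 34.0, 93.4 and 29.0 TPM in the same order. For TPS11 it was the monooxygenase gene MO1 (0.2886), practically tied with the starvation marker DIN10 (0.2887). For TPS6 it was AT5G54200 (0.12), for TPS5 AT2G05920 (0.16), for TPS7 Phox4 (0.11) and for TPS1 the receptor kinase gene SRF8 (0.12). The median difference over the 3315 to 14384 candidate genes was between 0.49 for TPS1 and 1.32 for TPS9. These are descriptions over libraries that fall into 4 groups.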

How the data were processed

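Whole-seedling RNA was sequenced on an Illumina HiSeq instrument from RNAiso Plus extracts and TruSeq libraries, per the labels' protocols. The authors deposited 1 table of TPM values per library, a unit read from the values, which sum to 980965 to 996431 per library. Per the submitters' processing notes, Trimmomatic 0.36, HISAT2 2.2.1.0, TopHat, Bowtie2, Cufflinks, DESeq 1.18.0 and the build TAIR10 were used, with no roles given. How reads shared between genes were handled is not given. Since TPM values hold no read depth, no counting interval can be given.

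Groups follow the sample titles. From the TPM values, log2(TPM + 1) was fitted with limma 3.58.1 (R 4.3.3) with 1 mean per group over all 12 libraries, a variance trend and no block, for 20314 genes with at least 1 TPM in at least 3 libraries. P-values were adjusted over all tested genes in each of 5 contrasts. The pseudocount of 1 understates changes of low genes. The fit was also run on simulated data with known changes. Their noise was independent between genes, with no shift shared by a whole library, so that run cannot speak to effects of scaling. No 2 libraries were duplicates: values correlated across genes at 0.955 to 0.977 within groups. Pairs taken from different groups had coefficients from 0.822 up to 0.956, so the ranges touched. The highest such pair was cry1 dark replicate 3 with WT dark replicate 3. That cry1 library was hardly closer to replicates 1 (0.959) and 2 (0.960) of its own group.

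Sequences and coordinates are from RefSeq's TAIR10.1. The tables hold no coordinates, and genes were matched by identifier. Coding sequences were aligned with MAFFT 7.526. Motifs were chosen after the members' values were seen. The region upstream of TPS6 is not reported here.

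Members and gene lists were chosen with earlier results of these data known. Named are all 8 members, CRY1, listed genes, and for each member the gene outside the family with the most alike pattern, among genes with a mean of at least 5 TPM and at least 0.5 times the member's SD. Alternatives were a pseudocount of 0.1, no filter and a filter of 5 TPM, TMM-type and quantile scaling, a replicate block, no trend, only the groups compared, and each of 12 libraries left out.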

Additional observations from a re-analysis of the deposited data

Results flagged for a closer look

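The light response of TPS6 differed between the genotypes by the test of the interaction: the log2 fold change in cry1 minus that in WT was 1.07 (limma, adjusted p = 0.0455). In WT its mean went from 27.0 to 8.19 TPM and in cry1 from 15.8 to 10.4 TPM, lower in blue light in 3 of 3 libraries of each genotype. The call was lost in 9 of the 12 fits without 1 library. It was also lost with a pseudocount of 0.1 (adjusted p = 0.0501), no filter on low values (0.0601) or a replicate block (0.0782).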

How the results depend on the processing

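Each of 8 other settings and 12 omissions of 1 library was applied to the counts and to each member, except that the interaction cannot be fitted with only the groups compared. Of 312 member values under the 8 settings, 294 kept their direction and side of the threshold, 7 lost and 5 gained a call, and 6 changed sign, none of them called. The sign changes were TPS1 for light in WT (0.0918 with TMM-type scaling, 0.1283 with quantile normalization), TPS5 for light in WT (-0.0038 with a pseudocount of 0.1), and in the interaction TPS7 (-0.1793 and -0.0508 with those scalings) and TPS11 (-0.0002 with quantile normalization).

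Among counts of TPS genes, those lower for light in cry1 were 2 without a filter; those higher in cry1 were 2 in blue light and 1 in the dark with quantile normalization; and the 1 in the interaction became 0 with a pseudocount of 0.1, no filter or the replicate block. For all genes, TMM-type scaling gave 3561 higher and 3384 lower for light in WT, 3322 higher for genotype in blue light, 2315 higher and 2748 lower for genotype in the dark, and 888 lower in the interaction. Quantile normalization gave 3163 higher for light in WT, 1824 lower for light in cry1, 3641 higher in blue light, 2748 higher and 2590 lower in the dark, and 894 lower in the interaction, which had 305 lower without a filter. In the lists, starvation markers lower in cry1 in blue light were 2 as deposited and 1 with either scaling, and the 1 called in the interaction (SEN1) became 0 without a filter, with TMM-type scaling and with the replicate block. Trehalose partners higher for light in cry1 were 0 as deposited, 1 with no variance trend and 3 with quantile normalization, and those higher for light in WT were 2 as deposited and 1 with the replicate block. Quantile normalization also called 1 SnRK1 subunit gene higher in cry1 in blue light. The cause was not tested.

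With 1 library left out, TPS genes lower were 5 in every fit for light in WT, 1 to 4 for light in cry1, 0 to 1 in blue light and 2 to 5 in the dark, and those higher 0 to 1 in blue light and 0 to 2 in the interaction. All genes ranged from 1392 to 2089 higher and 3025 to 5737 lower for light in WT, 1372 to 2009 and 632 to 1742 for light in cry1, 1231 to 2365 and 1928 to 3312 in blue light, 618 to 1137 and 2188 to 5331 in the dark, and 563 to 2068 and 130 to 751 in the interaction. In the lists, trehalose partners ranged from 1 to 2 higher and 1 to 2 lower for light in WT, 0 to 1 and 0 to 2 for light in cry1, 0 to 1 and 2 to 4 in blue light, and 2 to 3 lower in the dark, with 0 to 1 higher in the interaction. SnRK1 subunits lower ranged from 2 to 3 for light in WT, 0 to 1 for light in cry1 and 2 to 4 in the dark, with 0 to 2 higher in the interaction. Starvation markers lower ranged from 5 to 6 for light in WT, 2 to 4 for light in cry1, 1 to 5 in blue light and 4 to 6 in the dark, with 0 to 2 higher in the interaction. Sign changes were all of uncalled values, whose ranges were -0.4184 to 0.1049 (TPS1) and -0.2814 to 0.2573 (TPS5) for light in WT, -0.5577 to 0.2668 (TPS7) for light in cry1, -0.6169 to 0.2076 (TPS7), -0.6006 to 0.2149 (TPS9) and -0.3267 to 0.0011 (TPS10) in blue light, and -0.228 to 0.5965 (TPS7) and -0.1091 to 0.7795 (TPS11) in the interaction.

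The titles number the libraries 1 to 3 in each group. Deviations of same-numbered libraries from their group means correlated at -0.368 to 0.312, over 0.1 in 3 of 18 pairs, so the numbers were not taken to pair the libraries. With the replicate block the TPS genes lower were 5 for light in WT, 3 for light in cry1, 1 in blue light and 4 in the dark, and 271 of all genes were lower in the interaction. The block ended the calls of TPS11 for light in cry1 (adjusted p = 0.0643) and of TPS6 in the interaction (0.0782). Depth behind single values is unknown.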
